A study of Homo sapiens with 12 samples.

Results

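The 14-3-3 genes YWHAB, YWHAE, YWHAG, YWHAH, YWHAQ, YWHAZ and SFN were followed in IOSE80 cells exposed for 28 days. IOSE80 is a human ovarian epithelial cell line of non-cancer origin that has been immortalised. Every locus whose gene name holds one of the 7 symbols was taken, and loci were kept apart by identifier and strand. This gave 8 loci of the 30574 listed: 1 for each gene on its own strand, and a second, short one named YWHAE on the strand opposite to that gene. The short locus was selected on its FPKM in the E2 and DMSO libraries, so its values are given as a description and without a test, while the other 7 loci follow from their family name. The groups were bisphenol A (BPA) at 0.25 nM (3 libraries), BPA at 2500 nM (3 libraries), E2 (2 libraries) and 0.1% DMSO (3 libraries). BPA is a plastics monomer with weak oestrogenic activity, and E2 commonly stands for estradiol, whose dose the labels do not state. E2 replicate 3 was not analysed here. The labels name no solvent for the BPA and E2 groups, and they do not say that replicates were separate cultures, so the p-values rest on a spread between samples that may be technical.

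14-3-3 proteins are small adaptors that work as dimers and bind client proteins on phosphorylated serine or threonine. By binding they hide localisation signals, hold enzymes inactive or shield a site from phosphatases, so that RAF kinases, CDC25 phosphatases, BAD, FOXO factors and YAP are kept in the cytoplasm or switched off until the phosphate is removed. The genes encode the isoforms beta (YWHAB), epsilon (YWHAE), gamma (YWHAG), eta (YWHAH), theta (YWHAQ), zeta (YWHAZ) and sigma (SFN). Epsilon pairs mostly with other isoforms, whereas sigma mostly pairs with itself, is largely restricted to epithelia and is induced after DNA damage.

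Levels were deposited as FPKM, a fragment count divided by transcript length and by the size of the library, so that levels of different genes can be set side by side. The 11 libraries summed to 206719 to 213663 FPKM with 21223 to 23696 loci above 0. Read depth is unknown, and the precision given here comes from the spread between libraries alone. Of 17 ovarian surface epithelium markers, 5 had a median of at least 1 FPKM (VIM, ALDH1A1, KRT18, NR2F2 and KRT8), whereas CDH1 had a median of 0.01 FPKM and WT1 and GATA4 were at 0. Most of the defining markers of ovarian surface epithelium were thus absent or near 0. Of 9 fibroblast markers, 6 had a locus of their own and 1 of these (THY1, median 1.5 FPKM) reached 1 FPKM; the 3 leukocyte markers and the 1 endothelial marker with a locus of their own had medians of 0.

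The family fell into 4 highly and 3 weakly represented genes. YWHAQ lay highest, at chr2:9583967-9630997 on the minus strand (positions here are on GRCh38). It had 175.46, 153.69 and 185.63 FPKM in BPA 0.25 nM libraries, 182.14, 155.31 and 179.83 FPKM in BPA 2500 nM libraries, 182.40 and 197.72 FPKM in E2 libraries, and 183.93, 179.58 and 178.64 FPKM in DMSO libraries. Replicate 2 of either BPA dose lay lowest, and every treated group overlapped the DMSO libraries. By its mean in DMSO libraries, YWHAQ ranked 81 among 14117 loci that name a single protein-coding gene.

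YWHAE, on the minus strand at chr17:1344275-1400222, had 147.57, 150.35 and 163.13 FPKM in BPA 0.25 nM libraries, 128.32, 133.96 and 119.77 FPKM in BPA 2500 nM libraries, 130.97 and 121.55 FPKM in E2 libraries, and 129.77, 145.95 and 129.00 FPKM in DMSO libraries. The 3 BPA 0.25 nM libraries lay above all the others. YWHAG (chr7:76326799-76358991, minus strand) was the steadiest member, at 126.60, 125.20 and 128.19 FPKM with BPA 0.25 nM, 123.05, 127.31 and 122.52 FPKM with BPA 2500 nM, 127.20 and 137.68 FPKM with E2, and 129.13, 123.06 and 121.70 FPKM with DMSO. YWHAZ (chr8:100916523-100952983, minus strand) had 92.13, 82.59 and 86.10 FPKM with BPA 0.25 nM, 88.37, 84.27 and 85.80 FPKM with BPA 2500 nM, 87.91 and 104.27 FPKM with E2, and 98.17, 87.15 and 89.22 FPKM with DMSO. All groups overlapped for YWHAG and YWHAZ. The genes YWHAE, YWHAG and YWHAZ ranked 114, 125 and 198 among the same 14117 loci.

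YWHAB, SFN and the locus that holds YWHAH lay well below. By their means in DMSO libraries they still lay above 76.6%, 52.8% and 68.4% of the 14117 loci that name a single protein-coding gene. YWHAB (chr20:44885702-44908532, plus strand) had 10.69, 10.73 and 7.18 FPKM in BPA 0.25 nM libraries, 22.97, 16.53 and 8.49 FPKM in BPA 2500 nM libraries, 21.67 and 21.60 FPKM in E2 libraries, and 7.35, 12.65 and 7.35 FPKM in DMSO libraries. Its values were therefore high in both E2 libraries and in 2 of 3 BPA 2500 nM libraries, and the third BPA 2500 nM library lay among the DMSO values. SFN (chr1:26863149-26864456, plus strand) had 2.81, 2.67 and 3.41 FPKM in BPA 0.25 nM libraries, 2.11, 2.50 and 2.10 FPKM in BPA 2500 nM libraries, 2.37 and 2.32 FPKM in E2 libraries, and 3.04, 2.42 and 3.56 FPKM in DMSO libraries. Both E2 libraries lay below all DMSO libraries for SFN, and 1 of the BPA 2500 nM libraries lay within their range. SFN, a gene known for its high level in keratinocytes, was present while none of the 11 stratified epithelium markers with a locus of their own reached a median of 1 FPKM; KRT5 and KRT6A were at 0 and EPCAM at 0.37 FPKM.

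YWHAH has no locus of its own in the files. It shares one at chr22:31753867-31957603 on the plus strand with its neighbours DEPDC5 and RNU6-201P, so the level cannot be assigned to YWHAH alone and is uncertain. That joined locus had 7.86, 8.06 and 8.17 FPKM in BPA 0.25 nM libraries, 8.03, 8.40 and 8.22 FPKM in BPA 2500 nM libraries, 8.06 and 4.15 FPKM in E2 libraries, and 7.41, 7.27 and 4.45 FPKM in DMSO libraries. E2 replicate 2 and DMSO replicate 3 stood below the rest.

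**Figure D1:**
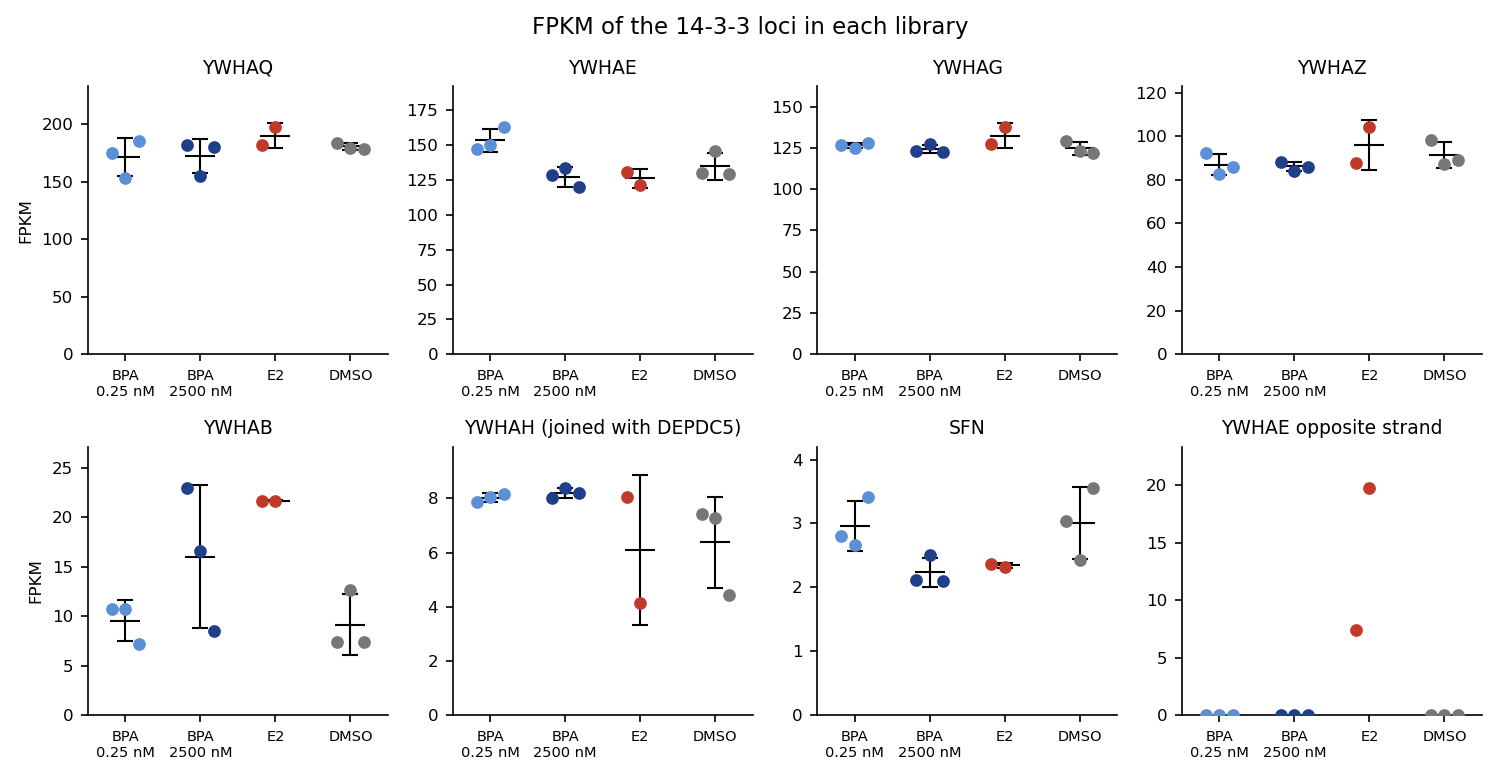
FPKM of each 14-3-3 locus (vertical axes, each from 0) in the 11 libraries by group (horizontal axes); points are libraries, and the bars are the mean and SD of 3 libraries, or of 2 for E2. YWHAQ, YWHAE, YWHAG and YWHAZ lie between 82.59 and 197.72 FPKM, YWHAB reaches 22.97 FPKM, and the opposite-strand YWHAE locus is above 0 in the E2 libraries, at 7.41 and 19.79 FPKM, with no mean drawn for it.

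The order of levels was stable. YWHAQ lay above YWHAE, YWHAG above YWHAZ, YWHAZ above YWHAB, and the joined YWHAH locus above SFN in 11 of 11 libraries. YWHAE and YWHAG were neighbours whose values overlapped within the BPA 2500 nM, E2 and DMSO groups and were apart in the BPA 0.25 nM group, with YWHAE above in 9 of 11 libraries. YWHAQ and YWHAE overlapped in the BPA 0.25 nM group alone. YWHAB and the joined YWHAH locus overlapped in the BPA 0.25 nM and DMSO groups and were apart in the BPA 2500 nM and E2 groups, with YWHAB above in 9 of 11 libraries. The 7 gene-strand loci summed to 559.4 ± 24.5 FPKM in BPA 0.25 nM libraries, 536.7 ± 15.9 FPKM in BPA 2500 nM libraries, 574.9 ± 20.3 FPKM in E2 libraries and 550.3 ± 14.2 FPKM in DMSO libraries (SD, n = 3, 3, 2 and 3). YWHAB made up 3.87% and 3.67% of that sum in E2 libraries, against 1.32%, 2.27% and 1.38% in DMSO libraries. YWHAE made up 26.21% to 28.19% of it with BPA 0.25 nM, against 23.22% to 26.15% with DMSO.

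The start regions of YWHAE, YWHAB and SFN are shown because these 3 loci had the smallest p-values among the 7 gene-strand loci in the comparisons that follow. Each line is the 250 bases before the RefSeq start of the gene (GRCh38.p14), 5′ to 3′ on the gene's strand, with GC boxes (GGGCGG) and CCAAT boxes (CCAAT) of either strand in capitals.
YWHAE, chr17:1400223-1400472, minus strand: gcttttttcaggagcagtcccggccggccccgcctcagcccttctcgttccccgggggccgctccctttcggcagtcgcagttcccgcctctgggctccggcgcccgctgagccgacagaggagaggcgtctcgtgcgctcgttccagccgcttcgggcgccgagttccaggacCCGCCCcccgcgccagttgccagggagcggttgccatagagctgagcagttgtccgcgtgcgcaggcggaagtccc
YWHAB, chr20:44885455-44885704, plus strand: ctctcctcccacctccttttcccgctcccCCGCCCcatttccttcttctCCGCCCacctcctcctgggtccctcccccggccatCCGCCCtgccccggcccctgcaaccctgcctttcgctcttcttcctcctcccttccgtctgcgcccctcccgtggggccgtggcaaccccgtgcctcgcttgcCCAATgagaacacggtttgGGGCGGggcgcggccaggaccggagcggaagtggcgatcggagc
SFN, chr1:26862899-26863148, plus strand: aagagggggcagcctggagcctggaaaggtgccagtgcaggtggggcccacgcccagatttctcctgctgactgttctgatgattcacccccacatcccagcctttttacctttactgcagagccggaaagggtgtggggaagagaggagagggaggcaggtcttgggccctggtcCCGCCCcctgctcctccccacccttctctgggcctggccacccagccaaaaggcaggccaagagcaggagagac
The YWHAE window had 71.2% GC and 29 CpG dinucleotides, the YWHAB window 70.4% GC and 21 CpG, and the SFN window 62.8% GC and 3 CpG, beside medians of 58% GC and 11 CpG over 35116 promoters of the same length. A GC box lay 76 bases before the start of YWHAE and 74 bases before that of SFN. YWHAB held 4 GC boxes and 1 CCAAT box, which lay 63 bases before the start. GC boxes stood in 42.6% and CCAAT boxes in 32.0% of all promoters.

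Motifs of the oestrogen receptor were searched on both strands of the 6 family promoters taken from this table. Neither the full element, GGTCA and TGACC with 3 bases between them, held by 0.0399% of all promoters, nor its half-site AGGTCA, held by 12.1%, occurred in the windows of SFN, YWHAB, YWHAE, YWHAG, YWHAH or YWHAQ. The half-site overlaps the full element where that is preceded by A or followed by T. A TATA box (TATAAA, in 10.7% of all promoters) was found in the YWHAH window alone, 180 bases before its start. These matches describe letters in a 250-base window and say nothing of binding.

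Low-dose BPA was compared with DMSO first. YWHAE was the gene-strand member with the largest difference relative to its standard error: 153.7 ± 8.3 FPKM in BPA 0.25 nM libraries and 134.9 ± 9.57 FPKM in DMSO libraries (SD, n = 3 each), with no overlap. The difference was 0.19 ± 0.067 (SE) on the log2(FPKM + 1) scale, the scale of all changes given here, with a 95% confidence interval of 0.038 to 0.34. It was not called, at an adjusted p of 0.477 by limma with Benjamini-Hochberg adjustment over the 12182 loci tested (those with at least 1 FPKM in at least 2 libraries). The threshold was an adjusted p under 0.05. Over all loci, 2 were called in this comparison, which is 0.0164% of those tested, and none of the 7 gene-strand loci of the family was among them by limma; 1 of the 7 had an unadjusted p under 0.05, as did 9.11% of all loci.

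The other loci moved less in relation to their spread. All 3 values of the joined YWHAH locus lay above those of DMSO, at 8.03 ± 0.157 FPKM with BPA 0.25 nM and 6.38 ± 1.67 FPKM with DMSO (log2 0.32 ± 0.21, adjusted p = 0.69 by limma). Without DMSO replicate 3, its lowest DMSO library, the log2 difference of the joined YWHAH locus was 0.115. YWHAE and the YWHAH locus were thus the 2 of 7 gene-strand loci that did not overlap DMSO, each on the higher side, where 9.01% of all loci tested stood, and no member stood on the lower side, where 8.05% did. YWHAQ, YWHAZ, YWHAG, YWHAB and SFN overlapped DMSO, with log2 differences of -0.08, -0.07, 0.024, 0.08 and -0.01. The median over the 7 loci was 0.024, beside 0.001 over all loci tested. The mitochondrial share of FPKM also differed between these groups, at 12.62% to 12.66% in BPA 0.25 nM libraries and 13.63% to 14.31% in DMSO libraries; its part in the YWHAE difference was not tested. Share and group cannot be told apart in the libraries of this comparison, and libraries under other treatments were not used to separate them.

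With high-dose BPA, SFN and YWHAB had the smallest p-values of the 7 gene-strand loci, and neither was called. SFN averaged 2.24 ± 0.228 FPKM in BPA 2500 nM libraries and 3.01 ± 0.571 FPKM in DMSO libraries (SD, n = 3 each), a log2 difference of -0.30 ± 0.11 (interval -0.55 to -0.053), and the groups overlapped. The adjusted p was 0.211 by limma. YWHAB averaged 16.0 ± 7.26 FPKM with BPA 2500 nM and 9.12 ± 3.06 FPKM with DMSO. Its log2 difference of 0.69 ± 0.32 had an interval of -0.041 to 1.42 and an adjusted p of 0.316 by limma, and leaving out any 1 library gave values from 0.39 to 1.06.

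The other members overlapped DMSO at this dose with 1 exception. The joined YWHAH locus lay above DMSO in all 3 libraries, with 8.22 ± 0.185 FPKM in BPA 2500 nM libraries (log2 0.35 ± 0.21, adjusted p = 0.424 by limma; 0.144 without DMSO replicate 3), on a side where 9.54% of all loci stood; 17.1% stood on the lower side, with no member among them. YWHAQ, YWHAE, YWHAZ and YWHAG differed by -0.07, -0.08, -0.085 and -0.004, and the last turned to 0.028 when FPKM was rescaled by the median of ratios. None of the 7 gene-strand loci was called by limma, where 158 loci (1.3% of those tested) were, and 1 of the 7 had an unadjusted p under 0.05, as did 17.2% of all loci. The median over the 7 gene-strand loci was -0.07, beside -0.027 over all loci.

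E2 against DMSO gave the widest difference of a gene-strand member. YWHAB averaged 21.6 ± 0.049 FPKM in E2 libraries (SD, n = 2) and 9.12 ± 3.06 FPKM in DMSO libraries (SD, n = 3), a log2 difference of 1.20 ± 0.36 with an interval of 0.39 to 2.02, or 2.30-fold on FPKM + 1. The groups did not overlap. The unadjusted p was 0.00866 and the adjusted p 0.159 by limma, so YWHAB was not called, and leaving out any 1 library kept the difference between 1.08 and 1.44. An unadjusted p under 0.05 was reached by 15.4% of all loci in this comparison and by 1 of the 7 gene-strand loci.

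SFN was the only other member that did not overlap in that comparison. It averaged 2.35 ± 0.035 FPKM in E2 libraries and 3.01 ± 0.571 FPKM in DMSO libraries, a log2 difference of -0.25 ± 0.12 with an adjusted p of 0.372 by limma. Of all loci, 12.2% did not overlap on the higher side, as YWHAB, and 16.2% on the lower side, as SFN. YWHAG, YWHAQ and YWHAZ differed by 0.09, 0.07 and 0.07, YWHAE by -0.09 and the joined YWHAH locus by -0.08, each with overlap. Calls numbered 51 over all loci (0.419%), and 0 of the 7 gene-strand loci were among them. In bulk RNA such as this, a change in the mix of cells and a change of RNA per cell cannot be told apart.

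The high BPA dose was then compared with the low one. YWHAE averaged 127.4 ± 7.15 FPKM with BPA 2500 nM and 153.7 ± 8.3 FPKM with BPA 0.25 nM, without overlap. The log2 difference was -0.27 ± 0.067, with an interval of -0.42 to -0.12, an unadjusted p of 0.00265 and an adjusted p of 0.381 by limma. SFN also stood apart, at 2.24 ± 0.228 FPKM with BPA 2500 nM and 2.96 ± 0.393 FPKM with BPA 0.25 nM (log2 -0.29 ± 0.11, adjusted p = 0.585 by limma). These were 2 of 7 members on the lower side, where 12.0% of all loci stood, and none was on the higher side, where 4.66% stood.

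YWHAB differed by 0.61 ± 0.32 between the doses, with overlap and an adjusted p of 0.692 by limma. The remaining members differed by 0.029 (the joined YWHAH locus), 0.008 (YWHAQ), -0.012 (YWHAZ) and -0.027 (YWHAG); the last 2 became 0.022 and 0.007 under rescaling. Across all loci 8 were called by limma (0.0657%), none of them a gene-strand locus of the family; 2 of the 7 had an unadjusted p under 0.05, as did 7.81% of all loci. The comparisons with DMSO share their 3 DMSO libraries, so they are not independent of each other.

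**Figure D2:**
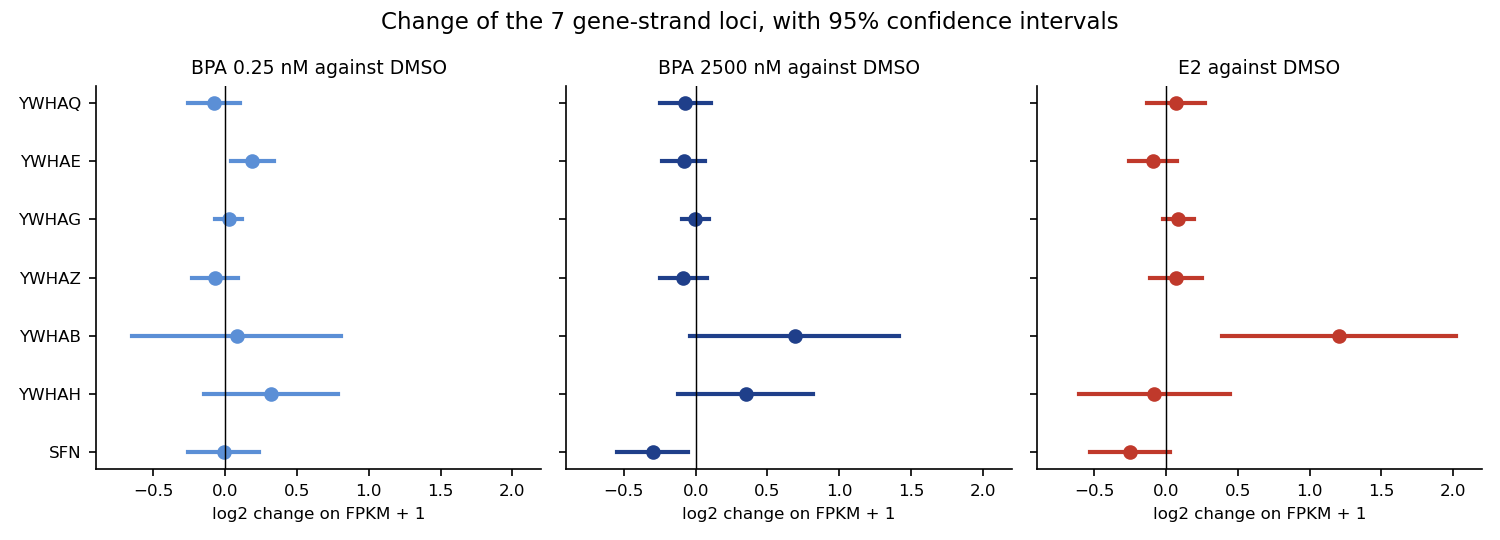
Log2 change on FPKM + 1 (horizontal axis) of the 7 gene-strand loci (vertical axis) for BPA 0.25 nM, BPA 2500 nM and E2, each against DMSO; points are the estimates of the linear model and bars their 95% confidence intervals. YWHAB against DMSO with E2, at 1.20, has the interval farthest from 0, and no locus passes the threshold after adjustment.

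The opposite-strand YWHAE locus was listed in the E2 libraries alone. It spans chr17:1344629-1344890 on the plus strand, 262 bases with a single assembled transcript. It was listed at 0 in all 3 BPA 0.25 nM, all 3 BPA 2500 nM and all 3 DMSO libraries, and at 7.41 and 19.79 FPKM in E2 replicates 1 and 2. With a group at 0 no fold is given. The E2 values equal 5.66% and 16.28% of the gene-strand YWHAE level in the same libraries.

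This short locus lies wholly within YWHAE. GENCODE 29 places it inside exon 6, the last exon, of the YWHAE transcript ENST00000264335 (1344272 to 1345499), in its 3′ UTR, 357 to 618 bases from the gene's 3′ end and 556 bases past the stop codon. No annotated plus-strand gene is named for it in the files, which give it the symbol of the gene beneath. No source used here states whether library preparation was stranded, so fragments of this locus and of YWHAE's own 3′ UTR cannot be told apart. Gene-strand YWHAE in the E2 libraries, at 130.97 and 121.55 FPKM, overlapped DMSO.

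**Figure D3:**
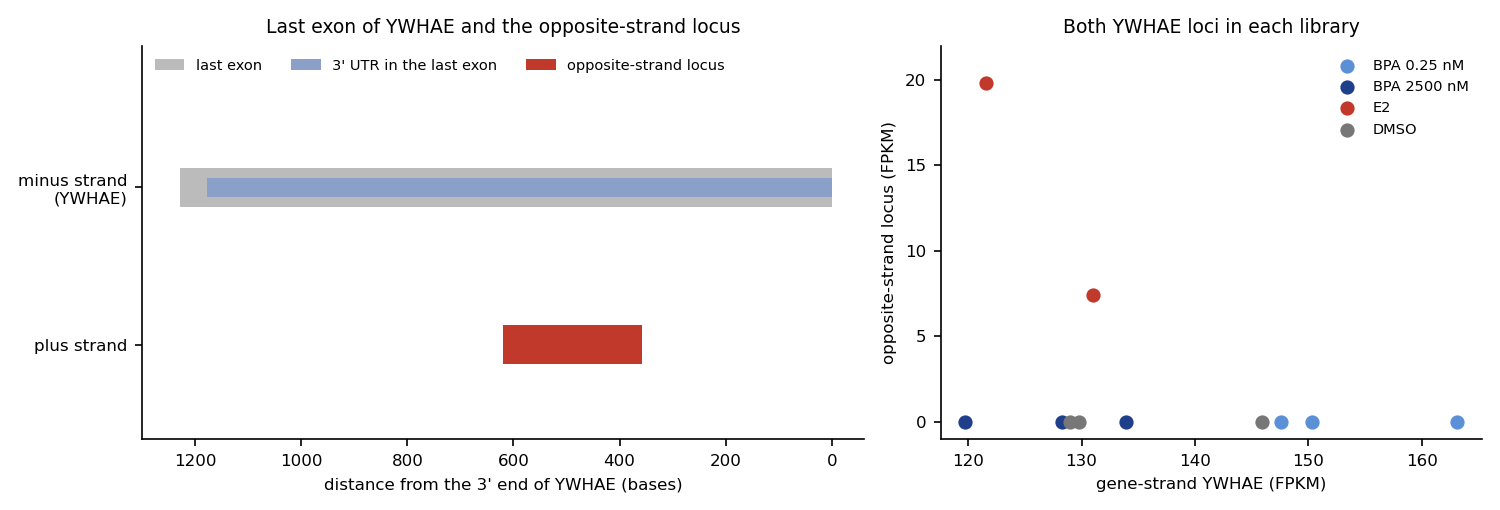
Left, the last exon of YWHAE with its 3′ UTR and the opposite-strand locus, by distance in bases from the gene's 3′ end (horizontal axis); the locus covers bases 357 to 618. Right, FPKM of the opposite-strand locus (vertical axis) against gene-strand YWHAE (horizontal axis, not from 0) in each of 11 libraries, with the E2 libraries at 7.41 and 19.79 FPKM and all others at 0.

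The locus can be set beside others of its kind. Of the 30574 loci, 1119 were at 0 in all libraries other than E2; 24 of those were above 0 in both E2 libraries, and 1, the YWHAE locus, had at least 1 FPKM in both. The same count gave 0 loci for BPA 0.25 nM, BPA 2500 nM and DMSO, each of which has 3 libraries to fill where E2 has 2. The YWHAE locus was selected on its E2 and DMSO values, so its place in this count follows in part from that choice. Nothing is read from it. Further, 54 loci in the files lie on the strand opposite to the single coding gene they name. Together these summed to 630.0 to 676.2 FPKM in BPA 0.25 nM libraries, 541.9 to 741.7 FPKM in BPA 2500 nM libraries, 763.6 and 638.9 FPKM in E2 libraries, and 547.1 to 690.6 FPKM in DMSO libraries. These sums, which include the YWHAE locus itself, overlapped between E2 and the other groups. A sum over many loci cannot show how single low loci of this kind behave.

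Within 100 kb of YWHAE, no other locus was above 0 in both E2 libraries and at 0 in all the rest. CRK, an adaptor of tyrosine kinase signalling encoded upstream of YWHAE, ran from 28.04 to 31.79 FPKM over the 11 libraries, and MYO1C, an unconventional myosin, from 30.84 to 34.51 FPKM. INPP5K, a phosphoinositide phosphatase, lay between 1.59 and 2.16 FPKM. The nearest other plus-strand locus, an AC032044 locus at chr17:1352070-1352255, reached 0.49 FPKM in E2 replicate 1 and was at 0 in E2 replicate 2, against 0.42, 0.12 and 0.21 FPKM in DMSO libraries. A second AC032044 locus, at chr17:1424473-1426484, had 0.42 and 0.94 FPKM in E2 libraries, against 0.25, 0.34 and 0.33 FPKM in DMSO libraries, and BHLHA9 and AC144836 did not exceed 0.07 FPKM.

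The wider group of 17p13.3 genes held 12 loci that were tested, and limma called none in any comparison; 2, 4 and 3 of them had an unadjusted p under 0.05 with BPA 0.25 nM, BPA 2500 nM and E2, beside 9.11%, 17.2% and 15.4% of all loci. PRPF8, a core splicing factor, averaged 51.2 ± 0.519 FPKM with BPA 0.25 nM, 50.8 ± 1.47 FPKM with BPA 2500 nM and 51.1 ± 2.19 FPKM with E2, against 47.5 ± 1.0 FPKM with DMSO, with adjusted p of 0.502, 0.275 and 0.321 by limma. TIMM22, a mitochondrial inner membrane translocase, averaged 12.3 ± 0.501 FPKM with BPA 2500 nM and 12.1 ± 0.495 FPKM with E2, against 10.5 ± 0.782 FPKM with DMSO (adjusted p 0.134 and 0.233 by limma). TLCD2 averaged 2.63 ± 0.045 FPKM with BPA 2500 nM and 2.58 ± 0.035 FPKM with E2, against 3.31 ± 0.429 FPKM with DMSO (adjusted p 0.13 and 0.155 by limma). ABR averaged 7.45 ± 0.191 FPKM with BPA 0.25 nM and 6.70 ± 0.17 FPKM with DMSO (adjusted p = 0.518 by limma). Positive changes were found in 7, 7 and 6 of the 12 for BPA 0.25 nM, BPA 2500 nM and E2, with medians of 0.077, 0.065 and -0.008 beside 0.001, -0.027 and -0.007 over all loci.

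Among client genes of 14-3-3 proteins, KIF1C rose with BPA 2500 nM and with E2, 1 of 39 loci tested, beside the 1.3% and 0.419% of all loci called in those comparisons. KIF1C is a kinesin motor of vesicle transport that binds 14-3-3 proteins. It had 20.10, 19.85 and 20.05 FPKM in BPA 0.25 nM libraries, 22.60, 22.31 and 22.96 FPKM in BPA 2500 nM libraries, 22.02 and 21.51 FPKM in E2 libraries, and 17.87, 17.58 and 18.65 FPKM in DMSO libraries. All treated libraries lay above all DMSO libraries. The rise passed the test with BPA 2500 nM (log2 0.31 ± 0.038, adjusted p = 0.00924 by limma) and with E2 (0.26 ± 0.042, adjusted p = 0.0438) and was not called with BPA 0.25 nM (0.14 ± 0.038, adjusted p = 0.383). The call with E2 was lost in all 11 fits that left out 1 library, at adjusted p from 0.056 to 0.141 (2 of these fits leave a single E2 library, assumed to vary like the other groups), and the call with BPA 2500 nM was kept in all 11. Without DMSO replicate 1 the call with BPA 2500 nM came near the threshold, at an adjusted p of 0.0496 by limma. A fit of only the 2 groups compared ended both calls, at adjusted p of 0.0682 for BPA 2500 nM and 0.334 for E2. The fit without a filter on low values and the one with a replicate block ended the call with E2, at 0.0842 and 0.109.

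The other client loci tested did not pass. Of 49 client genes, 47 loci were found and 39 tested, of which 16, 17 and 19 had a positive change with BPA 0.25 nM, BPA 2500 nM and E2; the medians were -0.032, -0.023 and -0.002, close to those of all loci. LARP1, an RNA-binding protein of ribosomal protein mRNAs that 14-3-3 binds, had 34.15, 18.04 and 34.98 FPKM with BPA 0.25 nM, 34.31, 17.59 and 32.36 FPKM with BPA 2500 nM, 33.75 and 34.88 FPKM with E2, and 19.21, 14.18 and 18.31 FPKM with DMSO. Its values fell into a low and a high range, with replicate 2 of either BPA dose among the low ones, and the E2 difference of 0.96 ± 0.33 had an adjusted p of 0.206 by limma. SOS1, the exchange factor that loads RAS with GTP, averaged 6.23 ± 0.118 FPKM with BPA 0.25 nM and 6.16 ± 0.157 FPKM with BPA 2500 nM, against 7.26 ± 0.284 FPKM with DMSO (adjusted p 0.45 and 0.147 by limma). TBC1D1, a RAB regulator of glucose transporter traffic, averaged 5.97 ± 0.386 FPKM with BPA 2500 nM and 6.82 ± 0.205 FPKM with DMSO (adjusted p = 0.142 by limma). FOXO1, a forkhead factor that 14-3-3 keeps out of the nucleus, averaged 1.79 ± 0.042 FPKM with BPA 0.25 nM and 1.53 ± 0.061 FPKM with DMSO (adjusted p = 0.541 by limma).

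None of the 26 tested loci of kinases that phosphorylate 14-3-3 binding sites was called by limma in any of the comparisons, and 0, 5 and 3 had an unadjusted p under 0.05 with BPA 0.25 nM, BPA 2500 nM and E2, beside 9.11%, 17.2% and 15.4% of all loci. SIK1, a salt-inducible kinase, came nearest: it averaged 1.23 ± 0.076 FPKM with BPA 2500 nM and 1.23 ± 0.064 FPKM with E2, against 0.87 ± 0.082 FPKM with DMSO (adjusted p 0.138 and 0.206 by limma). PRKACB, a catalytic subunit of protein kinase A, averaged 2.96 ± 0.134 FPKM with BPA 2500 nM and 3.77 ± 0.377 FPKM with DMSO (adjusted p = 0.174 by limma). CHEK2, the DNA damage kinase that marks CDC25 for 14-3-3, averaged 5.36 ± 0.51 FPKM with BPA 2500 nM and 6.37 ± 0.356 FPKM with DMSO (adjusted p = 0.176 by limma). STK11, the upstream kinase of AMPK, averaged 3.87 ± 0.262 FPKM with E2 and 4.61 ± 0.261 FPKM with DMSO (adjusted p = 0.164 by limma). PAK4 with E2 and PRKAA1, SGK3 and LATS2 with BPA 0.25 nM had adjusted p of 0.285, 0.55, 0.582 and 0.616 by limma. The list's medians were -0.014 (BPA 0.25 nM), -0.02 (BPA 2500 nM) and -0.048 (E2).

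The regulators of SFN and of 14-3-3 dimers gave 10 tested loci and no call by limma in any comparison, with 1, 0 and 1 at an unadjusted p under 0.05 for BPA 0.25 nM, BPA 2500 nM and E2, beside 9.11%, 17.2% and 15.4% of all loci. SPHK2, a sphingosine kinase, averaged 3.57 ± 0.171 FPKM with BPA 0.25 nM and 3.42 ± 0.236 FPKM with BPA 2500 nM, against 3.10 ± 0.188 FPKM with DMSO (adjusted p 0.518 and 0.395 by limma). COP1, a ubiquitin ligase of 14-3-3 sigma, averaged 14.3 ± 0.173 FPKM with BPA 2500 nM and 14.9 ± 0.232 FPKM with DMSO (adjusted p = 0.437 by limma). PRKCD and DNMT3A with BPA 0.25 nM and DNMT3B and DNMT3A with E2 had adjusted p of 0.704, 0.762, 0.543 and 0.565 by limma.

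**Figure D4:**
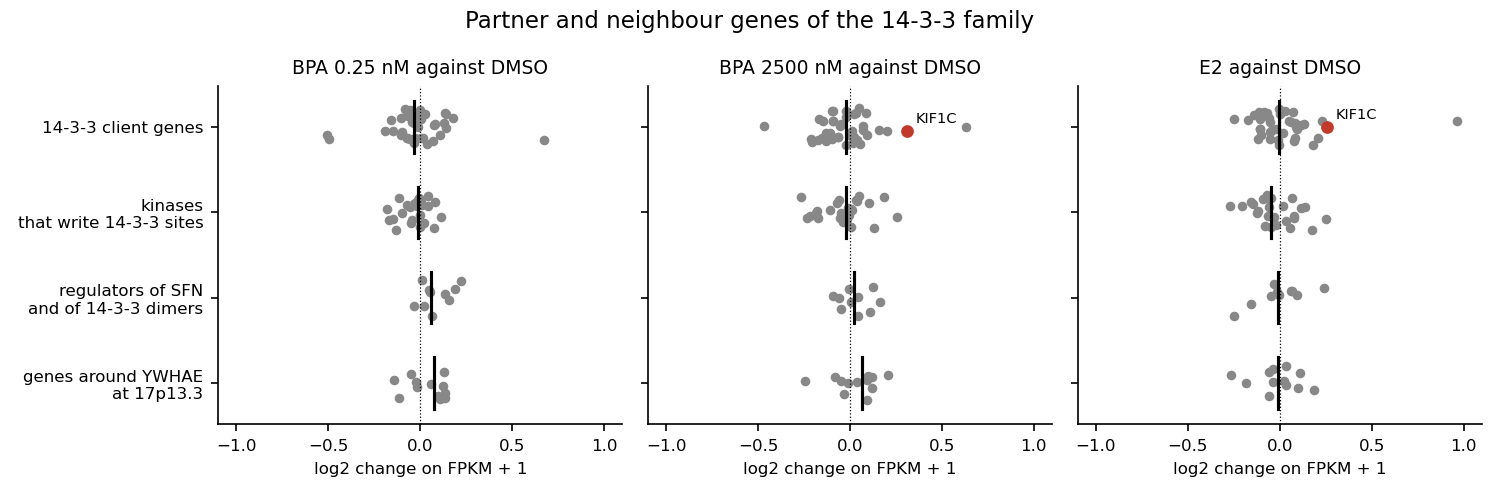
Log2 change on FPKM + 1 (horizontal axes) of the tested loci of 4 gene lists (vertical axes) for BPA 0.25 nM, BPA 2500 nM and E2, each against DMSO; grey points are loci, black lines list medians, and the red point is KIF1C where it was called. The medians lie between -0.048 and 0.077, and LARP1 is the point at 0.96 in the E2 panel.

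The patterns most like those of the family were ranked by Pearson's r of log2(FPKM + 1) over the 11 libraries, among 10926 tested loci that name 1 gene. These are descriptions, since the libraries come in shared groups. Gene-strand YWHAE was most like FLG (r = 0.881), XAB2 (0.847), GCDH (0.846) and MORC2 (0.839). FLG ran only from 0.93 to 1.26 FPKM over the 11 libraries, near the filter of 1 FPKM. The family sum was most like ATF7IP2 (0.94), RBM45 (0.934), MFF (0.861) and a locus the files name MIR548AR (0.847). For the opposite-strand YWHAE locus, at 0 in 9 libraries, the 4 nearest were PAQR4 (0.961), EDRF1 (0.897), TXNL1 (0.896) and BRD7 (0.895). That locus was selected on its E2 and DMSO values, so its ranking favours loci high in the E2 libraries and nothing is read from it. PAQR4 had 14.58 and 14.30 FPKM in E2 libraries and 4.34 to 5.99 FPKM in the other 9. YWHAB was added to this ranking after its values were seen, and its nearest locus was NCL, the nucleolar protein nucleolin (0.963). NCL had 148.76, 141.81 and 142.22 FPKM with BPA 0.25 nM, 162.44, 160.85 and 143.79 FPKM with BPA 2500 nM, 162.87 and 162.36 FPKM with E2, and 141.79, 151.50 and 141.69 FPKM with DMSO.

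Processed copies of 14-3-3 genes are common in the genome, and reads that match a gene and its copy can be split by the counting. The files hold 11 loci named for such copies, 1 of them joined with another gene. Among those with a locus of their own, YWHAEP1 (5.90 to 7.74 FPKM, median 6.85) and YWHAZP3 (3.26 to 5.90 FPKM, median 4.05) had a median of at least 1 FPKM. YWHAZP3, singled out after its values were seen, had 5.90 and 5.30 FPKM in the E2 libraries, against 4.32, 3.86 and 4.05 FPKM in DMSO libraries. These copies lay far below YWHAE and YWHAZ themselves. The joined locus, which holds TSG101 and YWHABP2, had 9.38 to 12.69 FPKM, beside 7.18 to 22.97 FPKM for YWHAB. Its level cannot be assigned to YWHABP2 alone.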

How the data were processed

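Total RNA of IOSE80 cells went onto an Illumina NovaSeq, per the labels' protocols. For each library the authors deposited FPKM values by locus, written with 2 decimals. The submitters' processing notes name the tools HISAT, UMI-tools, StringTie and edgeR, with neither version nor setting. Those notes name hg19, yet the files' coordinates are those of GRCh38: 74.8% of the 14123 Ensembl loci shared with GENCODE 29 match it at both ends. Joining of loci by the assembly affects YWHAH, and unknown strandedness affects the opposite-strand locus.

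FPKM values were tested with limma 3.58.1 (R 4.3.3, statmod 1.5.0) on log2(FPKM + 1), which understates the change of low genes. The model held a mean for each group over the 11 libraries, with trended, robust variances (7 residual degrees of freedom), two-sided, for 12182 loci with at least 1 FPKM in at least 2 libraries, with Benjamini-Hochberg adjustment over them. The procedure was tested on simulated data with independent, normally distributed noise and added changes of 1 on the log2 scale. That setting does not cover smaller changes or replicates whose spread may be technical. Low values showed too weak a common step to recover whole reads, so depth is unknown. Alternatives were a pseudocount of 0.1, no filter, rescaling by the median of ratios, a replicate block, only the groups compared, and each library left out.

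The members and lists were chosen with earlier results of these data known. Genes were named by 1 rule: all family loci, the 4 loci most like each YWHAE locus and the family sum, every call and the 3 smallest p-values of each list in each comparison with DMSO, and all loci within 100 kb of YWHAE; 1 gene that this rule names is not reported here. Promoter sequences are from RefSeq (GRCh38.p14), which matched 6 of the family's genes as used here. Figures were drawn with matplotlib 3.10.9.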

Additional observations from a re-analysis of the deposited data

How the results depend on the processing

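Over the changes of the 7 gene-strand loci, 137 values under other settings kept their direction and side of the threshold and 3 reversed; with 1 library left out, 287 kept both and 21 reversed. The reversals under rescaling were YWHAG with BPA 2500 nM against DMSO (0.028) and, for BPA 2500 nM against BPA 0.25 nM, YWHAG (0.007) and YWHAZ (0.022). With 1 library left out, changes of both signs came from SFN (-0.12 to 0.088) and YWHAB (-0.039 to 0.32) with BPA 0.25 nM, YWHAG (-0.021 to 0.022) and YWHAQ (-0.11 to 0.002) with BPA 2500 nM, the joined YWHAH locus (-0.49 to 0.32) and YWHAZ (-0.055 to 0.19) with E2, and YWHAQ (-0.069 to 0.081) and YWHAZ (-0.048 to 0.03) between the BPA doses. Of the other named genes, DNMT3A with BPA 0.25 nM (-0.011 to 0.324) did so. No gene-strand locus was called under any setting. The opposite-strand YWHAE locus was selected on its E2 and DMSO values and reaches the filter through its E2 libraries alone. No call or count of calls is therefore given for it under any setting.

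Calls over all loci moved more. With BPA 0.25 nM, 2 became 1 under rescaling and under the block and 9 with only the groups compared. With BPA 2500 nM, 158 became 39 without a filter, 38 under the block and 13 with only the groups compared. With E2, 51 became 33 without a filter, 5 under the block and 2 with only the groups compared. Between the BPA doses, 8 became 3 under the block and 3 with only the groups compared. Leaving out 1 library gave 0 (without BPA 0.25 nM replicate 2) to 9 (without DMSO replicate 3), 32 (without BPA 2500 nM replicate 1) to 251 (without E2 replicate 2), 7 (without BPA 2500 nM replicate 2) to 189 (without E2 replicate 1), and 2 to 10 calls. Without 1 E2 library that group is a single sample, assumed to vary like the others. The causes were not tested. Correlations of the deviations of same-numbered libraries ran from -0.117 to 0.164, and those of differently numbered ones from -0.164 to 0.166. Deviations from a mean of 2 or 3 libraries depend on each other. These correlations therefore cannot decide whether replicate numbers pair the samples.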
